A study of Saccharomyces cerevisiae S288C with 12 samples.

Results

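The regions described here are binding peaks of the yeast centromeric histone Cse4 that lay close to a centromere without being next to it. A peak was taken where its summit was over 5 and up to 20 kb from the centromere of its chromosome in the sacCer3 genome, with centromere positions given in kb to 0.1. This gave 1507 of the 25569 nuclear peaks in the deposited lists of 6 immunoprecipitated libraries, in 32 windows of 15 kb on both sides of 16 centromeres. The windows made up 480 kb, or 3.98% of the genome spanned. The choice used position alone and no measured height.

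Cse4 was sequenced after chromatin immunoprecipitation (ChIP-seq) from 3 strains of Saccharomyces cerevisiae, with 2 immunoprecipitated libraries each. Per the labels, every strain lacked PSH1 (psh1delta) and carried pGAL-6His-3HA-CSE4, a tagged CSE4 driven by the GAL promoter. In the K215/216A strain the lysines at positions 215 and 216 of the tagged protein were replaced by alanine, in the K215/216R strain by arginine, and in the WT strain they were kept. All cells grew in 2% raffinose at 30 °C and received 2% galactose for 2 h, a design meant to give excess Cse4 in all 3 groups, WT included. Anti-HA beads recovered the tagged protein from sonicated spheroplasts, with DNA fragments of 100 bp on average. Every group lacked PSH1 and carried the induced CSE4, and Cse4 levels were not measured in these data. The labels do not state whether an untagged CSE4 remained, nor whether the replicates were separate cultures. The p-values below therefore measure only the spread between libraries, which may be technical.

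Cse4 replaces histone H3 in the nucleosome that carries the kinetochore, and Psh1 is the ubiquitin ligase that marks misplaced Cse4 for destruction. The DNA flanking the point centromere, the pericentromere, is rich in cohesin and is where sister chromatids are held under tension in mitosis, with convergent genes as its known cohesin boundaries. When Cse4 is made in excess or its turnover is impaired, it is known to enter chromosome arms, with promoters among its preferred places. The strain comparisons address whether these lysines alter where excess Cse4 settles.

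Depth, judged here only by the background pileup solved from the peak lists, differed between libraries, and peak numbers moved with it. Reads were not counted, and if an input served as control this background follows the input. Solving the MACS2 formulas for fold enrichment and p gave whole pileup values for 99.6 to 99.8% of peaks, within 0.001 of the deposited −log10 p. The genome-wide background pileup obtained in this way was 146 and 148 in K215/216A, 86.2 and 156 in K215/216R, and 59.5 and 126 in WT libraries. WT replicate 1 was the shallowest library and had the shortest list, 3123 peaks, and K215/216R replicate 1 was next in both, with 3604. The other lists held 4575 to 4822 peaks.

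The pericentromeric windows held 273 and 279 peaks in the K215/216A libraries, 226 and 282 in the K215/216R libraries, and 187 and 260 in the WT libraries. Both K215/216A libraries lay above both WT libraries, the K215/216R values overlapped both other strains, and the lowest numbers were those of the shallowest 2 libraries. The mean was 276 ± 4.24 in K215/216A, 254 ± 39.6 in K215/216R and 223.5 ± 51.6 in WT (SD, n = 2 each). The difference from WT was 52.5 peaks for K215/216A and 30.5 for K215/216R, and K215/216R minus K215/216A was -22. In exact two-sided permutation tests over libraries these had p = 0.333, 0.667 and 1, where 0.333 is the smallest value 2 against 2 libraries can give. Both mutants together exceeded WT by 41.5 peaks (exact permutation p = 0.267, smallest possible 0.133). After adjustment over 20 strain comparisons, those of 5 measures of the windows, every p was 1.

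Without WT replicate 1 the K215/216A excess over WT was 16 peaks, and without WT replicate 2 it was 89. Leaving out WT replicate 1 also turned the K215/216R difference from WT to -6. The depth of that library moved with the result, and its part in it was not tested.

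Set against the length of each list, the windows held nearly the same share of peaks in every library. This share was 5.97 and 5.90% in K215/216A, 6.27 and 5.85% in K215/216R, and 5.99 and 5.51% in WT. The strains overlapped, and the 95% Wilson intervals, which cover counting error only, had lower bounds of 4.89 to 5.52% and upper bounds of 6.20 to 7.11%. The difference from WT was 0.188 percentage points for K215/216A and 0.311 for K215/216R (exact permutation p = 1 and 0.667). The authors' deposited merged lists of both replicates placed 226 of 3511 regions (6.44%) in the windows in K215/216A, 198 of 3052 (6.49%) in K215/216R and 161 of 2635 (6.11%) in WT.

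At equal list length the strains no longer overlapped, although the gap was small. When each list was cut to its 3123 best peaks by −log10 p, the length of the shortest list, the windows held 206 and 206 peaks in K215/216A, 205 and 202 in K215/216R, and 187 and 190 in WT. All 4 mutant libraries were above both WT libraries, by 16.25 peaks on average (exact permutation p = 0.133, the smallest value possible). The cut left the list of WT replicate 1 whole and shortened the others. With −log10 q of at least 5 instead, the strains overlapped in the share of peaks in the windows. This share was 6.87 and 6.64% in K215/216A, 6.61 and 6.33% in K215/216R, and 6.70 and 6.32% in WT. When pileups were instead thinned to the lowest background, the numbers were 210 and 214 in K215/216A, 202 and 218 in K215/216R, and 187 and 207 in WT. There WT replicate 2 overlapped the K215/216R libraries in number, and the mean excess of the mutants was 14 peaks (exact permutation p = 0.267). The thinned lists still differed in length, from 3113 peaks in WT replicate 1 to 3673 in WT replicate 2. As a share of these lists, the windows held 6.31 and 6.31% in K215/216A, 6.39 and 6.18% in K215/216R, and 6.01 and 5.64% in WT. By share, all 4 mutant libraries were above both WT libraries (exact permutation p = 0.133, the smallest value possible).

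**Figure D1:**
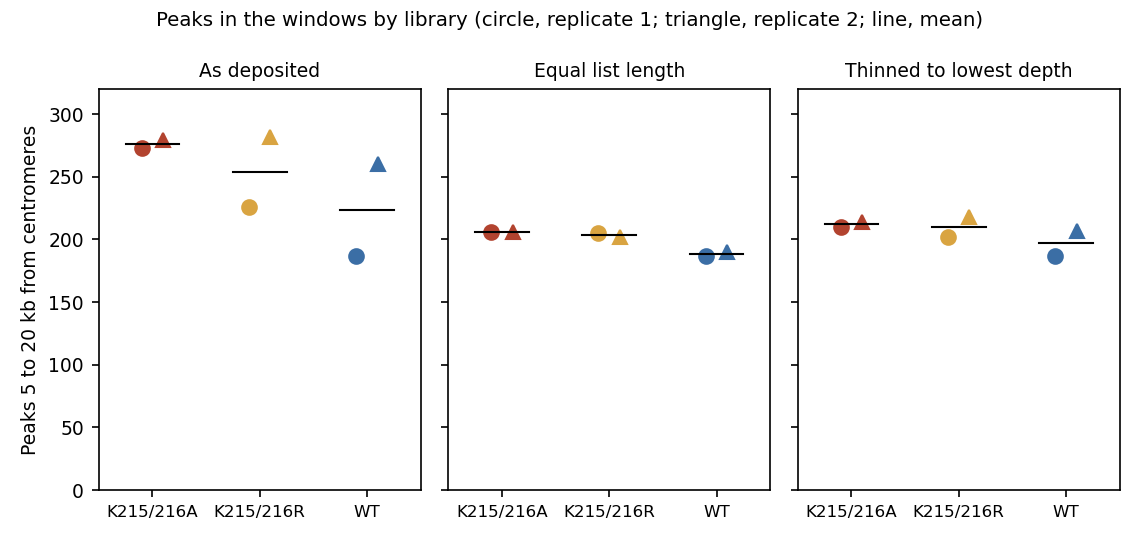
Number of peaks with a summit 5 to 20 kb from a centromere in each library, by strain, as deposited, at an equal list length and after thinning to the lowest depth; circles and triangles are replicates 1 and 2 and lines are means of 2 libraries. At equal list length the 4 mutant libraries hold 202 to 206 peaks and the WT libraries 187 and 190. After thinning, WT replicate 2 holds 207 and the K215/216R libraries 202 and 218.

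Peaks covered 22.2 and 22.1% of the window bases in K215/216A, 15.1 and 23.1% in K215/216R, and 12.6 and 20.9% in WT. Here too both K215/216A libraries were above both WT libraries and K215/216R spanned both. The covered share was 5.39 percentage points higher in K215/216A than in WT (exact permutation p = 0.333) and 2.35 points higher in K215/216R than in WT (p = 0.667). Without WT replicate 1 the first of these was 1.27 points and the second was -1.77.

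Cse4 peaks were denser in the pericentromeric windows than on the arms in every library. The windows held 56.9 and 58.1 summits per 100 kb in K215/216A, 47.1 and 58.8 in K215/216R, and 39.0 and 54.2 in WT. Beyond 20 kb, the arms held 36.4 and 37.8 in K215/216A, 28.7 and 38.6 in K215/216R, and 25.2 and 38.1 in WT. The log2 ratio of window to arm density was 0.62 ± 0.066 (SD, n = 6), a 1.54-fold excess, and it was positive in 6 of 6 libraries. An exact sign-flip permutation test over libraries gave p = 0.03125, the smallest value 6 libraries allow, with an adjusted p of 0.0365 over 7 such comparisons. This p describes the spread over libraries of 1 genome, not over windows. The median local background of member peaks was 0.987 to 1.05 times that of arm peaks.

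Averaged over libraries, density fell with distance from the centromere. Mean density over the 6 libraries was 76.7 summits per 100 kb within 2.5 kb of the centromere and 64.2 at 2.5 to 5 kb. Inside the windows it was 57.3 at 5 to 7.5 kb and 54.0 at 7.5 to 10 kb, and 49.8 to 52.1 in the belts of 2.5 kb from 10 to 20 kb. It was 45.9 at 20 to 30 kb, 46.1 at 30 to 40 kb and 39.7 at 40 to 50 kb. These are means without a test, and WT replicate 1 stayed at 32.5 to 43.75 summits per 100 kb through the first 20 kb.

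Against the flanking 20 to 50 kb the windows were 1.19-fold denser, a log2 ratio of 0.25 ± 0.07 (SD, n = 6) that was positive in 6 of 6 libraries (exact sign-flip p = 0.03125, adjusted 0.0365). Against the 5 kb next to the centromere the log2 ratio was -0.39 ± 0.24 (SD, n = 6), with p = 0.0625 in the same exact test. The libraries split on this ratio. Within 5 kb of the centromere there were 89.4 and 81.3 summits per 100 kb in K215/216A, 61.9 and 80.6 in K215/216R, and 37.5 and 71.9 in WT. In WT replicate 1 the innermost 5 kb was no denser than the windows, and in the other 5 libraries it was denser.

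**Figure D2:**
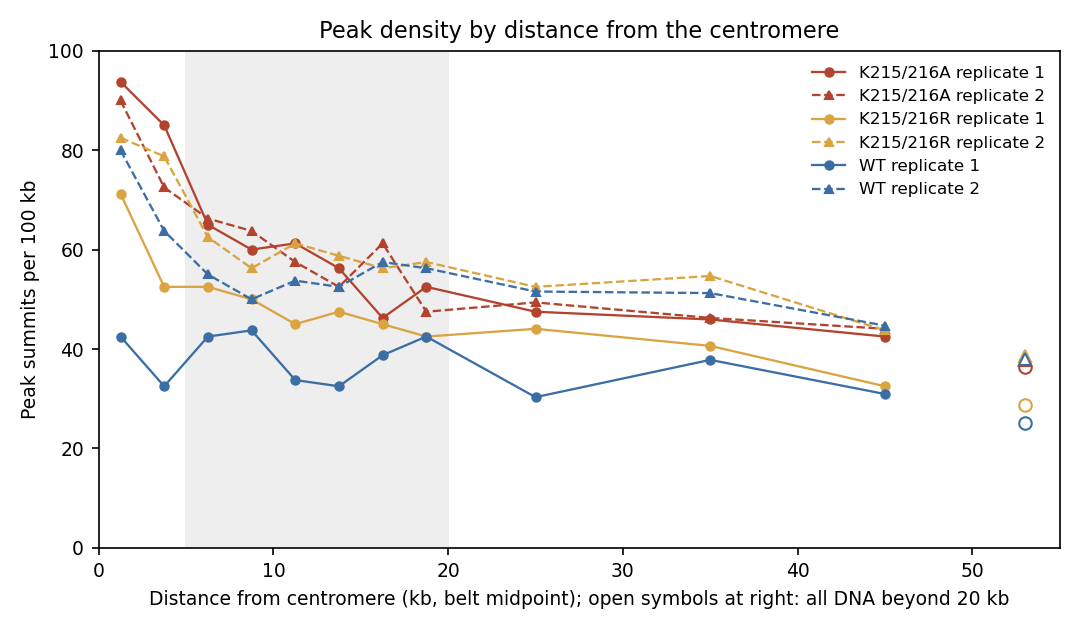
Peak summits per 100 kb against distance from the centromere in kb, 1 line per library; the grey band marks 5 to 20 kb and open symbols give the density beyond 20 kb. All 6 libraries lie above their own arm density inside the band, and WT replicate 1 is the one library without a rise inside 5 kb.

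The windows differed widely from each other. The left window of chromosome IX was the busiest, with 79 peaks over the 6 libraries and 11 to 15 in each, followed by the right window of VII with 74, the right window of XIV with 68 and the left window of III with 67. The sparsest were the left window of II, with 15 peaks in all and 1 to 4 per library, and the left window of XII, with 21 and 2 to 5. Each library exceeded its own arm density in 26 to 29 of the 32 windows. The same 21 windows did so in all 6 libraries, and the left windows of II and XII did so in none. The right side held more peaks than the left in every library, with 154 against 119 in K215/216A replicate 1 and 102 against 85 in WT replicate 1 as examples. By chromosome the totals ran from 123 on XV, 122 on III and 122 on IX down to 58 on XI.

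**Figure D3:**
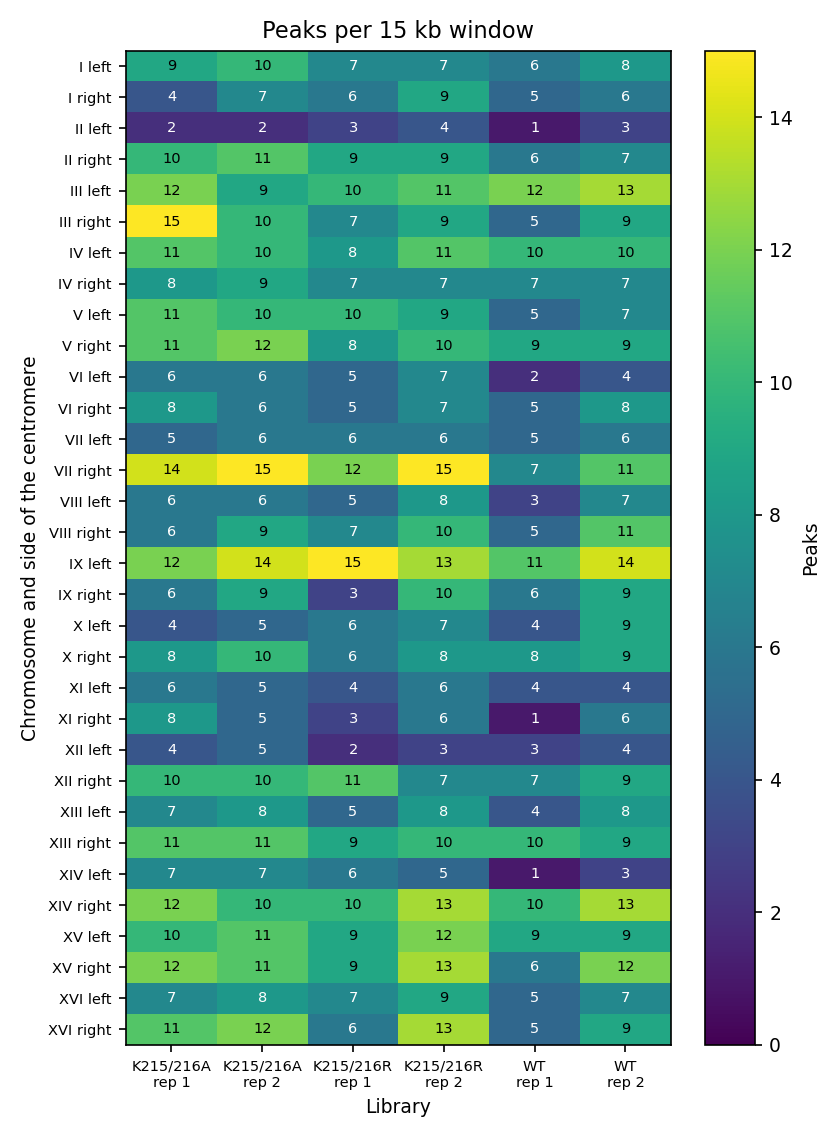
Peaks in each of the 32 windows (rows, chromosome and side of the centromere) in each library (columns), printed and coloured by number. The left window of IX has 11 to 15 peaks in every library and the left window of II has 1 to 4.

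Within the windows, Cse4 summits were found in all kinds of gene context. Genes were taken from RefSeq, and a promoter was the 500 bp upstream of a protein-coding gene start. Summits inside genes made up 54.0 to 57.4% of member peaks, while genes covered 72.6% of window bases. The share in promoters was 31.5 and 32.3% in K215/216A, 27.4 and 28.0% in K215/216R, and 32.1 and 29.2% in WT. As deposited, both K215/216R libraries were below all 4 others. With −log10 q of at least 5 this no longer held, since K215/216R replicate 1 stood at 33.6%, against 31.6% in K215/216A replicate 1 and 32.1% in WT replicate 2. K215/216R minus K215/216A was -4.16 percentage points and K215/216R minus WT was -2.93 points, each with an exact permutation p of 0.333, the smallest possible, and an adjusted p of 1. With promoters of 250 bp these differences were -1.82 and -0.744 points.

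Over the whole windows, promoters held a smaller share of summits than on the arms. On the arms the promoter share of summits was 37.0 and 36.9% in K215/216A, 34.8 and 32% in K215/216R, and 32.5 and 32.2% in WT. The windows were lower in 6 of 6 libraries, with a mean difference of -4.14 ± 2.36 percentage points (SD, n = 6; exact sign-flip p = 0.03125, adjusted 0.0365). In WT replicate 1 the gap was -0.425 points. With windows of 5 to 15 kb the mean difference was -2.69 points (exact sign-flip p = 0.0938). The belts within the windows differed, described here without a test. At 10 to 12.5 kb the promoter share was 42.9 and 43.5% in K215/216A, 38.9 and 40.8% in K215/216R, and 37.0 and 41.9% in WT, above the arm share in 6 of 6 libraries. At 7.5 to 10 kb it was above the arm share in 5 of 6 libraries, and at 5 to 7.5 kb and 12.5 to 15 kb it was below in 6 of 6. Promoters made up 21.2% of window bases and 21.3% of arm bases, so summits lay in promoters more often than bases did in both places.

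The gaps between genes were occupied more often in the windows than on the arms, whatever the direction of the flanking genes. Of 64 gaps between divergent genes, which share a promoter region, 30 and 33 held a summit in K215/216A, 23 and 25 in K215/216R, and 24 and 30 in WT. Of 112 tandem gaps, between genes read in the same direction, 54 and 53 held a summit in K215/216A, 48 and 54 in K215/216R, and 38 and 49 in WT. Of 62 convergent gaps, where genes end towards each other, 20 and 23 held one in K215/216A, 19 and 20 in K215/216R, and 11 and 19 in WT.

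For divergent gaps the difference from the arms was 12.6 ± 3.39 percentage points, for tandem gaps 15.5 ± 2.06 and for convergent gaps 15.8 ± 4.27 (SD, n = 6). Each was positive in 6 of 6 libraries (exact sign-flip p = 0.03125, adjusted 0.0365). As a ratio of windows to arms, convergent gaps stood at 1.85 to 2.47, tandem gaps at 1.43 to 1.69 and divergent gaps at 1.22 to 1.75. Summit density itself stood at 1.42 to 1.64 times that of the arms. Denser summits fill more gaps, so these differences are not independent of the density excess given above. The tandem and divergent ratios lay around the density ratio. The convergent ratio was above the divergent one in every library, an order noticed in the values and given without a test. Median gap lengths in the windows and on the arms were 538.5 and 511 bp for divergent, 440 and 399 bp for tandem, and 246.5 and 229 bp for convergent gaps.

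Occupied in all 6 libraries were 13 of the 64 divergent gaps (20.3%, against 14.5% of all such gaps in the genome), 29 of the 112 tandem gaps (25.9%, against 12.7%) and 8 of the 62 convergent gaps (12.9%, against 5.02%). The 8 convergent gaps, listed after their values were seen, were those of SLX5 with YDL012C, APC11 with YDL007C-A and PTC1 with MED2 on the left of centromere IV, PAC2 with TMA20 on V, PEX31 with TFG2 on VII, APL1 with LSO1 on X, TAF4 with PLB2 on XIII and CHL1 with TFC8 on XVI. SLX5 encodes a subunit of a SUMO-targeted ubiquitin ligase, APC11 a subunit of the anaphase-promoting complex, CHL1 a helicase of sister chromatid cohesion and TFC8 a subunit of the tRNA gene transcription factor TFIIIC.

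**Figure D4:**
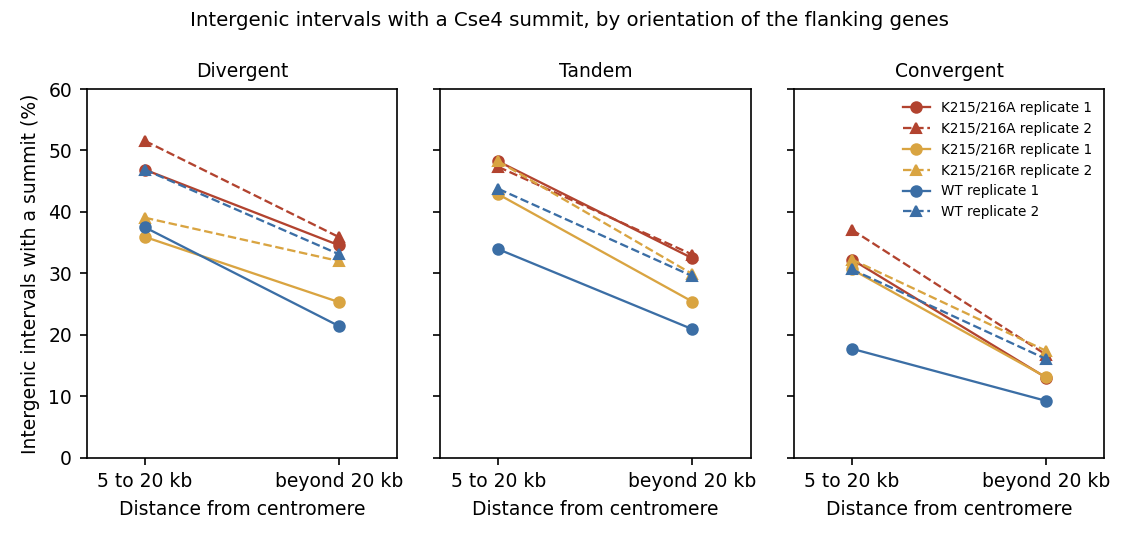
Share of gaps between genes that held a Cse4 summit (percent), 5 to 20 kb from the centromere and beyond 20 kb, for divergent, tandem and convergent gaps, 1 line per library. All 18 lines fall from the window to the arm.

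By gene, 246 protein-coding genes started in the windows, and a gene was called where a summit lay in its promoter. Called genes numbered 100 and 102 in K215/216A, 74 and 92 in K215/216R, and 72 and 91 in WT. Called in both libraries of a strain were 80 genes in K215/216A (32.5%, against 23.8% of all genes), 61 in K215/216R (24.8%, against 17.6%) and 58 in WT (23.6%, against 15% of all genes). In all 6 libraries 31 genes were called (12.6%, against 9.5% of all genes). WT replicate 1 and K215/216R replicate 1 had the fewest called genes. Both K215/216A libraries were above all others, as they also were over all genes of the genome, with 31.2 and 32.5% called in K215/216A, 23.0 and 28.4% in K215/216R, and 19.0 and 28.3% in WT.

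Among tRNA genes, which are transcribed by RNA polymerase III, 23 of 275 lay in the windows. A summit lay in or up to 500 bp upstream of 12 and 10 of them in K215/216A, 7 and 10 in K215/216R, and 5 and 8 in WT. In both libraries of a strain there were 7 in K215/216A (30.4%, against 23.6% of all tRNA genes), 6 in K215/216R (26.1%, against 20.4%) and 4 in WT (17.4%, against 9.45%). K215/216A and WT did not overlap in the windows, nor over all 275 tRNA genes, with 37.1 and 33.8% called in K215/216A, 24.4 and 32% in K215/216R, and 11.6 and 27.6% in WT. TRN1, a proline tRNA gene, and YNCE0010W were called in all 6 libraries, as were 6.55% of all tRNA genes.

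Member peaks were longer and slightly higher in rank than arm peaks, as described here without a test. Their median length was 305 and 300 bp in K215/216A, 267 and 305 bp in K215/216R, and 271 and 320.5 bp in WT. The arm medians were 247 to 277 bp, and in each library the window median was 1.08 to 1.2 times that of the arms. Fold enrichment is the authors' own value, the pileup at the summit over the local background, and was compared by rank within each list. The median member peak ranked above 57.0 and 54.0% of the library's peaks in K215/216A, 50.7 and 53.1% in K215/216R, and 51.9 and 58.5% in WT, while arm medians were 48.9 to 49.8%. Of member peaks, 9.68 to 16.2% were in the top 10% of their library by fold, against 9.31 to 9.87% of arm peaks, and both measures were higher for members in 6 of 6 libraries. Within 5 kb of the centromere the medians were 67.6 and 63.5% in K215/216A, 63.7 and 60.5% in K215/216R, and 51.9 and 55.7% in WT.

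The highest peaks included members in every library. Among the 100 peaks with the highest fold, 6 and 10 were members in K215/216A, 6 and 7 in K215/216R, and 7 and 9 in WT. Members made up 5.51 to 6.27% of all peaks of a library, so these counts were near that share or somewhat above it. The innermost 5 kb held 19 and 15 of the top 100 in K215/216A, 7 and 6 in K215/216R, and 3 and 6 in WT. The member counts overlapped in all strains, with a difference from WT of 0 in K215/216A (exact permutation p = 1) and -1.5 in K215/216R (p = 0.667). Close to the inner limit, 3 member peaks within 0.1 kb of 5 kb had folds of 1.31 to 1.74, and 11 peaks just outside it had 1.31 to 1.91. At the outer limit, 14 peaks inside had 1.29 to 1.82 and 1 peak outside had 1.47.

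Joining overlapping peaks of the 6 libraries gave 342 regions with a member summit, of 6493 in the genome. Of these, 124 had a summit in the windows in all 6 libraries (36.3%, against 27.7% of all regions) and 53 in 1 library only (15.5%, against 21.6%). Called in both libraries were 211 regions in K215/216A (61.7%, against 52.4% of all regions), 185 in K215/216R (54.1%, against 45.2%) and 154 in WT (45.0%, against 38.8%). By chromosome, regions were most numerous on V, with 27, and fewest on II, with 15. Regions called in all 6 libraries had a median width of 608 bp and lay in promoters in 40 of 124 cases. Those called in 1 library had a median width of 171 bp and lay in promoters in 9 of 53. A region spans all peaks joined in it, so the difference in width is built into the joining. Of all 342 member regions, 88 lay in promoters (25.7%), and no such share was taken over all regions of the genome.

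Overlap of member regions was not always highest between replicates of a strain. The share of the union that was common (Jaccard index) was 0.723 between the K215/216A replicates, 0.673 between the K215/216R replicates and 0.614 between the WT replicates. The highest of all 15 pairs was K215/216R replicate 2 with WT replicate 2, at 0.746, and the lowest was K215/216A replicate 1 with WT replicate 1, at 0.535. Over all regions of the genome the same pairs were highest and lowest, at 0.679 and 0.462. There the replicates stood at 0.652 in K215/216A, 0.608 in K215/216R and 0.539 in WT, so this order was not particular to the windows.

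Of the 3 best-ranked regions common to all 6 libraries, 2 lay on both sides of PMA1, the plasma membrane proton pump gene, on the left of centromere VII. The first, at 478810 to 479432 on chromosome VII of sacCer3, lay in the gap between LEU1, which acts in leucine synthesis, and PMA1, 17.8 kb from the centromere and 558 bp upstream of the LEU1 start. Its fold was 3.42 and 3.84 in K215/216A, 3.01 and 3.33 in K215/216R, and 2.96 and 2.20 in WT. All 4 mutant values were above both WT values. The other, ranked just below the ERG11 region described next, at 483805 to 484122 next to BRP1, a dubious reading frame upstream of PMA1, was 13.1 kb from the centromere and had folds of 3.21 and 3.20 in K215/216A, 2.81 and 2.95 in K215/216R, and 2.41 and 2.43 in WT. Here too the strains did not overlap, with K215/216A highest and WT lowest. The genome-wide share of regions of all 6 libraries with both K215/216A folds above both WT folds was 11.6%, and 14 of the 124 members (11.3%) showed it.

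On the right of centromere VIII, the promoter of ERG11, the lanosterol demethylase of ergosterol synthesis, held the second-ranked region, at 121373 to 122770, 16.4 kb away. Its fold was 2.59 and 2.94 in K215/216A, 2.84 and 2.70 in K215/216R, and 2.58 and 2.61 in WT, and the strains overlapped. On the left of the same centromere 2 neighbouring regions ranked high. The region at 98349 to 99141, at the starts of SHU1, a recombination gene, and MRP4, a mitochondrial ribosomal protein gene, had folds of 2.90 and 2.36 in K215/216A, 2.47 and 2.27 in K215/216R, and 2.89 and 2.29 in WT. The region at 97328 to 98098 in the promoter of STE20, a kinase gene of the mating pathway, had 2.51 and 2.38 in K215/216A, 2.12 and 2.08 in K215/216R, and 2.71 and 2.18 in WT. At STE20 both K215/216R values were below all others.

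The other 5 of the 10 best-ranked common regions had folds between 2.01 and 2.81 in every library. In the DSF2 promoter on II (251347 to 252355) the fold was 2.45 and 2.38 in K215/216A, 2.81 and 2.11 in K215/216R, and 2.41 and 2.32 in WT, with overlap of all strains. At TRN1 on I (138641 to 139122) it was 2.13 and 2.13 in K215/216A, 2.26 and 2.06 in K215/216R, and 2.70 and 2.41 in WT, so both WT values were above all mutant values.

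Between TRP1, of tryptophan synthesis, and GAL3, the galactose sensor, on IV (462513 to 463133), the fold was 2.1 and 2.41 in K215/216A, 2.09 and 2.11 in K215/216R, and 2.17 and 2.04 in WT. In the promoter of EPS1, an endoplasmic reticulum disulfide isomerase gene, on IX (345055 to 346070), it was 2.07 and 2.43 in K215/216A, 2.08 and 2.11 in K215/216R, and 2.08 and 2.23 in WT. Both overlapped between strains. In the divergent gap of CTK2, a cyclin of a kinase acting on RNA polymerase II, and CYR1, adenylate cyclase, on X (424024 to 424699), it was 2.18 and 2.20 in K215/216A, 2.20 and 2.25 in K215/216R, and 2.01 and 2.09 in WT. At CTK2 all mutant values were above both WT values. Orders between pairs of strains are set beside their genome-wide shares below.

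**Figure D5:**
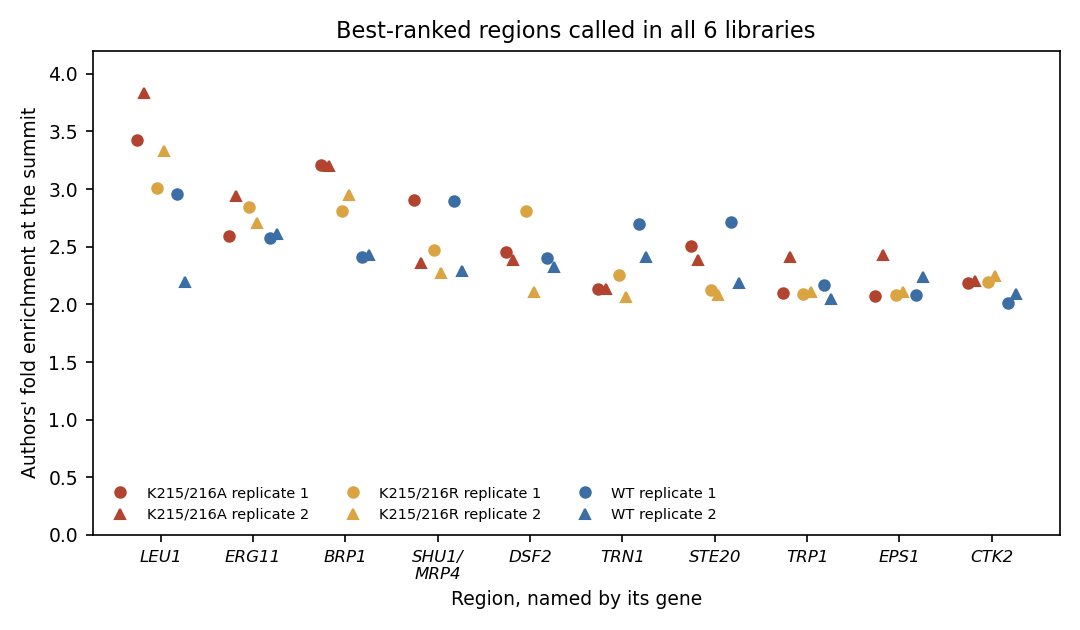
The authors' fold enrichment at the summit in each library for the 10 best-ranked member regions called in all 6 libraries, named by gene. At LEU1, BRP1 and CTK2 the 4 mutant values lie above both WT values, and at TRN1 the WT values lie above the mutants. Over all 124 common member regions, both K215/216A folds were above both WT folds in 11.3%, against 11.6% of all such regions. For K215/216R above WT it was 11.3%, against 14.4%, and for WT above K215/216A 34.7%, against 37.9%. No share was taken for all 4 mutant libraries together.

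Across all 124 common member regions, the order of folds between strains was counted and set beside the same count in the genome. Both WT folds were above both K215/216A folds in 43 regions (34.7%, against 37.9% of all 1796 such regions), and the opposite held in the 14 given above. Both K215/216R folds were above both WT folds in 14 (11.3%, against 14.4%) and below both in 23 (18.5%, against 18.6%). Both K215/216A folds were above both K215/216R folds in 20 (16.1%, against 11.8%) and below both in 29 (23.4%, against 34.5%). Fold is a ratio within a library, the libraries differed in depth as given above, and the part of depth in these orders was not tested.

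Regions with a window summit in both libraries of one strain and no overlapping peak in either library of another were few. With K215/216A as the strain with summits and WT as the one without a peak there were 28 (8.19% of member regions, against 8.35% of all regions), and the converse held for 5 (1.46%, against 3.05%). For K215/216R and WT these counts were 10 (2.92%, against 2.54%) and 3 (0.877%, against 1.36%). For K215/216A and K215/216R they were 18 (5.26%, against 5.45%) and 12 (3.51%, against 2.82%). None of these shares was far above that of the whole genome. The count of 28 was 30 without WT replicate 1 and 75 without WT replicate 2. The 28 regions found in K215/216A and not in WT were on 15 chromosomes, with 8 in promoters, 11 inside genes and folds of 1.19 to 1.75. All 5 found in WT and not in K215/216A were inside genes. Of all 342 member regions, 88 lay in promoters and 187 inside genes. A region where K215/216A had an overlapping peak with its summit elsewhere, as upstream of MCD1 below, is not counted here.

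The best-ranked of the 28 included neighbouring regions at ECT1 and STF2 on VII. The promoter of STF2, a modulator of ATP synthase (508292 to 508604), had folds of 1.59 and 1.53 in K215/216A and 1.36 in K215/216R replicate 2. The neighbouring region inside ECT1, of phosphatidylethanolamine synthesis (507785 to 508115), had 1.63 and 1.40 in K215/216A and 1.38 in K215/216R replicate 2. In K215/216A replicate 2 a summit of the second region lay in the gap of ECT1 with STF2. Neither region had a peak in K215/216R replicate 1 or in WT, although WT replicate 2 had a summit elsewhere in the gap of STF2 with SEC9. Peaks of K215/216A alone lay in the divergent gap of SAD1, a splicing gene, and YFR006W on VI (156013 to 156282, folds 1.75 and 1.44), near SUF2, a proline tRNA gene, on III (123937 to 124216, folds 1.41 and 1.67) and upstream of YEA4, a nucleotide sugar transporter gene, within VAB2 on V (146594 to 146764, folds 1.59 and 1.45).

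The gap of AEP3 with LSP1, an eisosome gene, on XVI (550111 to 550504) had a peak in all 4 mutant libraries, with folds of 1.5 and 1.63 in K215/216A, of 1.40 and 1.57 in K215/216R, and none in WT. Inside AIM45, on the other side of the same centromere (564129 to 564487), folds were 1.56 and 1.37 in K215/216A, then 1.56 and 1.90 in K215/216R, again with none in WT. In all, 4 member regions were called in all 4 mutant libraries and neither WT library (1.17%, against 1.36% of all regions), the other 2 being next to BUD14 and MRP7. The opposite, both WT libraries and no mutant library, was found for 2 member regions, against 0.57% of all regions. These were inside SAG1, the alpha-agglutinin gene, on X (443739 to 443962, folds 1.57 and 1.25 in WT) and inside PRP2, a spliceosome ATPase gene, on XIV (644946 to 645126, folds 1.67 and 1.33 in WT).

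The 3 other regions of WT and not K215/216A were also found in at least 1 K215/216R library. Inside BYE1, a gene for a protein that binds RNA polymerase II (XI, 434378 to 434984), folds were 1.90 and 1.58 in K215/216R and 1.60 and 2.01 in WT. Inside CYR1 (X, 430349 to 430573) they were 1.3 in K215/216R replicate 2 and 1.37 and 1.27 in WT. Inside the overlapping Ty frames YBL005W-A and YBL005W-B (II, 221506 to 221814) they were 1.25 in K215/216R replicate 2 and 1.31 and 1.41 in WT. Ty elements occur in many near-identical copies, so reads there cannot be assigned with certainty.

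Regions of K215/216R and not WT were led by one inside SEC3, an exocyst gene, on V (167795 to 168109), with folds of 2.26 and 1.62 in K215/216R and 1.17 in K215/216A replicate 2. A second SEC3 region, in the divergent gap with NTF2, a nuclear import gene (171730 to 172032), went the other way, with folds of 1.52 in K215/216A replicate 1 and of 2.09 and 1.54 in WT, and none in K215/216R. Upstream of the same Ty frames on II (220927 to 221097) only K215/216R had peaks, with folds of 1.89 and 1.71. Inside GIS4 on XIII (255934 to 256218, folds 1.40 and 1.66) and TSR3, a ribosomal RNA modification gene, on XV (338445 to 338663, folds 1.49 and 1.45), peaks were likewise called in K215/216R alone.

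Between the mutants, K215/216A and not K215/216R had, beside SAD1, SUF2 and YEA4, a region upstream of MCD1, the cohesin kleisin gene, on IV (444013 to 444238, folds 1.56 and 1.44), one upstream of UTP23, a ribosome biogenesis gene, on XV (333125 to 333385, folds 1.34 and 1.53) and one inside FOX2, of peroxisomal fatty acid oxidation, on XI (454206 to 454666, folds 1.48 and 1.37). WT had no peak overlapping any of these 3 regions. Elsewhere in the same gap upstream of MCD1, K215/216R had folds of 2.36 and 2.32 and WT of 2.18 and 2.66, as described below. K215/216R and not K215/216A was led by the gap of the Ty frame YHL009W-B with YHL008C on VIII (91652 to 91838), with folds of 2.63 and 2.59 in K215/216R and 2.81 in WT replicate 2. The summit was at base 91766 in all 3 libraries. In the same gap K215/216A had peaks at 92295 and 92297, with folds of 1.72 and 1.60.

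Of the 12 regions of K215/216R and not K215/216A, the last 2 of those named by rule, in the gap of RCL1 with MDM12 on XV (308933 to 309178) and inside TFC8 on XVI (542593 to 542855), were also called in WT replicate 2. RCL1, a ribosomal RNA processing gene, had folds of 1.78 and 1.55 in K215/216R and 1.57 in WT replicate 2, and TFC8 had 1.73 and 1.52 in K215/216R and 1.71 in WT replicate 2.

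At some sites the K215/216A libraries lacked a summit that the other strains had at nearly the same base. Summits of all libraries were joined where they lay within 60 bp of each other, a distance and a minimum fold of 2 in at least 1 library that were chosen after the values were seen, and no test was made. Of 70 such sites in the pericentromeric windows, 4 (5.71%) had a summit in both K215/216R and both WT libraries and in neither K215/216A library, against 2.23% of all 985 sites in the genome. With K215/216R as the strain without a summit the count was 0 of 70, against 0.305% of all sites, and with WT it was 0 of 70, against 1.22%. At such sites only libraries of the strains with the summit can meet the minimum fold. The site inside BYE1 met it through WT replicate 2 alone, with a fold of 2.01. These counts describe the sites chosen in this way and are not evidence of a trait of K215/216A.

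The clearest of the 4 lay upstream of MCD1, the gene of the cohesin kleisin subunit. The summit was at bases 444509 and 444507 of chromosome IV in K215/216R and at 444506 in both WT libraries. The fold there was 2.36 and 2.32 in K215/216R and 2.18 and 2.66 in WT. In both K215/216A libraries a peak covered the same stretch, but its summit was at base 445040, 531 bp further and 4.76 kb from the centromere, with folds of 1.48 and 1.5. WT replicate 2 had a further peak there, with its summit at 445108 and a fold of 1.37, and the peak of K215/216R replicate 2 reached to base 445133. Both K215/216A libraries also had a separate peak in the gap upstream of MCD1, with summits at 444150 and 444108 and folds of 1.56 and 1.44.

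Within VPS8, a vacuolar sorting gene, on chromosome I, the summit was at bases 143701 and 143669 in K215/216A, with folds of 1.99 and 1.88. It was at 144016 in both K215/216R libraries, with folds of 2.17 and 2.39, and at 144011 and 144010 in WT, with folds of 2.03 and 2.29. Within RCR1 on chromosome II, both K215/216A summits were at base 246071, with folds of 1.36 and 1.66. The K215/216R summits were at 246181, with folds of 2.21 and 2.12, and the WT summits at 246160 and 246181, with folds of 2.30 and 2.39. The fourth site was the one inside BYE1, where K215/216A had no peak. Differences between the strains in the underlying DNA were not analysed here.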

How the data were processed

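The submitters' processing notes list Bowtie 1.0.0 (a read aligner), the peak caller MACS2 2.1.1.20160226, bedtools 2.25.0 and the sacCer3 build. Which control and which read filters went into calling is not given in the sources used here. The authors deposited 1 peak list per immunoprecipitated library and 1 merged list per strain. The 6 input libraries were not analysed here. In each list the fold enrichment is a ratio computed by the authors, the deposited −log10 p and −log10 q values refer to the summit, and their score column holds the deposited −log10 q multiplied by 10. The deposited position and offset columns locate the summit. The merged lists hold the authors' mean fold per region as a ratio.

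The windows, gene lists and tests were chosen with earlier results of these data known. Genes came from RefSeq R64 (6002 protein-coding and 275 tRNA genes). Peaks sharing 1 bp were joined into regions, and a member region counts as called in a library where a summit lies in the window. A region counted as absent from a strain had no overlapping peak, in or out of the window, in either of its libraries. Background pileup was solved from fold and p under the MACS2 formula, which takes a Poisson model, and is the lowest local background of the list. If an input served as control, this background follows the input. The precision of a share per library is its 95% Wilson interval.

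Strains were compared with exact two-sided permutation tests over libraries, and windows with arms by exact sign-flip tests, both with Benjamini-Hochberg adjustment. Doubling of the smaller tail made 0.133 the smallest p for 4 against 2 libraries. Regions were named by rule, as the 10 of all 6 libraries with the highest mean rank of fold and up to 6 per direction of each pair of strains. Each was placed inside a gene, promoter or gap by its best-ranked summit alone, and summits of other libraries can lie outside that place. Alternatives were a −log10 q of at least 5, equal list length, thinning, windows of 5 to 15 and 10 to 20 kb, membership by overlap, a 250 bp promoter, joining at 50 percent of the shorter peak, the replicate number as a block, and leaving out each library. Python 3.11.15, numpy 2.4.6, scipy 1.17.1 and pandas 2.3.3 were used, and the calculations were tested on simulated data.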

Additional observations from a re-analysis of the deposited data

How the results depend on the processing

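The window-to-arm and window-to-20-to-50-kb density ratios and the 3 gap differences kept their direction and stayed past the threshold under every alternative but the omission of a library, where 5 libraries cannot give a p below 0.0625. Without each library in turn the log2 ratio to the arms was 0.60 to 0.64, to 20 to 50 kb 0.24 to 0.28 and to the innermost 5 kb -0.48 to -0.34, and the promoter share difference was -4.88 to -3.49 points, the divergent gap difference 11.9 to 13.7, the tandem 14.9 to 16 and the convergent 14.9 to 17.3. With windows of 10 to 20 kb the ratio to the innermost 5 kb was -0.44 (exact p = 0.03125). With windows of 5 to 15 kb the promoter difference was -2.69 points (exact p = 0.0938). Of 20 strain differences, 6 reversed under a setting other than leaving out a library, and none in peak number or covered percent did. The share of peaks differed by -0.0111 points for K215/216A minus WT with 10 to 20 kb windows, by -0.0396 for K215/216R minus WT at −log10 q of at least 5, and for K215/216R minus K215/216A by -0.282 at −log10 q of at least 5, -0.0801 at equal list length, -0.0305 after thinning and -0.0072 with 5 to 15 kb windows. The promoter share differed by -0.0934 points for K215/216A minus WT at −log10 q of at least 5, and by 0.167 for both mutants minus WT with a 250 bp promoter. The top 100 count differed by 0 for K215/216R minus WT after thinning, and for both mutants minus WT by 1.25 after thinning and 0 with 10 to 20 kb windows.

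Leaving out each library in turn, the peak number differed by 16 to 89 (K215/216A minus WT), -6 to 67 (K215/216R minus WT), -50 to 6 (K215/216R minus K215/216A) and 5 to 78 (both mutants minus WT). The share of peaks differed by -0.0518 to 0.428, 0.0717 to 0.551, -0.0878 to 0.335 and 0.00991 to 0.489 points in the same order, the covered percent by 1.27 to 9.52, -1.77 to 6.48, -7.04 to 0.959 and -0.254 to 7.998, the promoter share by -0.206 to 2.65, -4.36 to -1.51, -4.53 to -3.78 and -2.28 to 0.571, and the top 100 count by -2 to 2, -2.5 to -0.5, -3.5 to 0.5 and -1.75 to 0.25. Regions of K215/216A and not WT numbered 30 to 75, of WT and not K215/216A 10 to 22, of K215/216R and not WT 13 to 55, of WT and not K215/216R 5 to 22, of K215/216A and not K215/216R 22 to 51, and of K215/216R and not K215/216A 17 to 27, since 1 library fewer has to be present or absent. Regions of WT and not K215/216A numbered 3 at −log10 q of at least 5, 9 at equal list length and 12 after thinning. Regions of K215/216R and not WT numbered 5 at −log10 q of at least 5. Regions of WT and not K215/216R numbered 9 at equal list length and 7 after thinning. Causes of these changes were not tested. Same-numbered replicates did not deviate together over 1796 regions, those called in all 6 libraries (r = -0.0215, -0.0520 and 0.0114). These values leave out list length and all other regions, so they cannot show whether same-numbered libraries shared a batch. With the replicate number as a block the differences in peak number did not change (52.5, 30.5, -22 and 41.5; exact p = 0.5, 0.5, 1 and 0.222, with 0.5 and 0.222 the smallest possible), and no call changed. WT replicate 1 and K215/216R replicate 1 were the shallowest libraries.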
